A study of Mus musculus with 6 samples.

Results

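The genes described here are 10 members of the transforming growth factor beta (TGF-beta) pathway, taken by symbol from the 24421 genes listed in every library. They are the ligands Tgfb1, Tgfb2 and Tgfb3, the latent-TGF-beta binding protein Ltbp1, the receptors Tgfbr1, Tgfbr2 and Tgfbr3, and the intracellular Smad proteins Smad2, Smad3 and Smad7. All 10 were found in all 6 libraries and all 10 passed the filter on low values, a mean of at least 1 normalized count, which left 18413 genes to test. RNA-seq was performed on cells sorted from the adult mouse olfactory bulb, with 3 control libraries and 3 Sox9 KO libraries, each from 1 male mouse. All 6 mice had received AAV-GFAP-iCre-P2a-TurboRFP in the bulb, a virus in which the GFAP promoter drives Cre recombinase and the red protein TurboRFP, so that the controls carried virus, Cre and TurboRFP as well. The KO mice were Sox9fl/fl, with LoxP sites around part of Sox9. The controls were labelled WT with the strain C57BL/6, are C57BL/6J in the protocol, and are called Sox9+/+ in the study's methods. TurboRFP-positive cells were collected by FACS 4 weeks after the injection. Any cell that held TurboRFP could enter the gate, among them any virus-carrying cell in which the GFAP promoter fragment was active. The question was how loss of Sox9, a transcription factor of astrocytes, altered gene expression.

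TGF-beta is secreted as a latent complex, in which the mature ligand stays bound to its own propeptide and is tethered to the matrix by a latent-TGF-beta binding protein or to a cell surface by another anchor. Integrins and proteases free the ligand, which then binds the type II receptor Tgfbr2, and this recruits and phosphorylates the type I receptor Tgfbr1. Tgfbr1 phosphorylates Smad2 and Smad3, which enter the nucleus with Smad4, and Smad7 is an inhibitor induced by the pathway. In the brain, astrocytes and neurons are known as sources of Tgfb2, and microglia are known to depend on TGF-beta signals and to make Tgfb1.

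Because the members did not all move in the same direction, the bases just upstream of their starts are shown. These are given for the members that rose or fell the most among those with a window used here. RefSeq promoter windows of GRCm38.p6 (mm10) were found for 6 of the 10 members, and none was found for Tgfb3, Tgfbr3, Smad2 or Smad7. Each run below is the 250 bases before the start, 5′ to 3′ on the strand of the gene. Capitals mark matches, on either strand, to ACAAAG or ACAAT (cores bound by Sox proteins), CAGAC (a Smad box) and TATAAA (the TATA box).
Tgfb2, chr1:186705990-186706239, minus strand: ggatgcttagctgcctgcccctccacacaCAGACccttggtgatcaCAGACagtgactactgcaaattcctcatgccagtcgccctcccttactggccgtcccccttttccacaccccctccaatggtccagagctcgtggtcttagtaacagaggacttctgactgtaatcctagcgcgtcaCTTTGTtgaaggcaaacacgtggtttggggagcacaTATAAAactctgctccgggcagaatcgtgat
Ltbp1, chr17:75005279-75005528, plus strand: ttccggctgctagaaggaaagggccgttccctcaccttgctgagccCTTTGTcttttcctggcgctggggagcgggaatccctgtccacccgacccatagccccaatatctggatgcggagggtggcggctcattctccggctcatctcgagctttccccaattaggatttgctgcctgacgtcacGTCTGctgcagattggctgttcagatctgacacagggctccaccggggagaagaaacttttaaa
Tgfb1, chr7:25686752-25687001, plus strand: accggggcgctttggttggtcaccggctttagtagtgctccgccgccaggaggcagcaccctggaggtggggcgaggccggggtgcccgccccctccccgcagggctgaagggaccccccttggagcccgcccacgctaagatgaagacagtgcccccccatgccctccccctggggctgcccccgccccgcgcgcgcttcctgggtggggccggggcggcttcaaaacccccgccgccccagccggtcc
Tgfbr1, chr4:47352972-47353221, plus strand: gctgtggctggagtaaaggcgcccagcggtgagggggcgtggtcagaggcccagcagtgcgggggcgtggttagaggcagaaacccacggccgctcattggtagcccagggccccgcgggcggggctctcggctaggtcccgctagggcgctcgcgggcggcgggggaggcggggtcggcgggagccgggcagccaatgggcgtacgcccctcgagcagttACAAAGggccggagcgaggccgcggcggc
Tgfbr2, chr9:116175364-116175613, minus strand: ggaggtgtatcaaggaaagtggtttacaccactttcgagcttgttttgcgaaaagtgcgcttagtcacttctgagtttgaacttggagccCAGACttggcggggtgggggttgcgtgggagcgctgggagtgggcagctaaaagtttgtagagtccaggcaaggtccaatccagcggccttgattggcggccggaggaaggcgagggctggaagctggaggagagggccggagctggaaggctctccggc
Over all 32851 windows, cut to the same 250 bases, ACAAAG occurred in 16.5%, ACAAT in 27.7%, CAGAC in 42.2% and TATAAA in 12.4%. The Tgfb2 window held a TATAAA that began 31 bases before the start, a match to ACAAAG at 67 bases and matches to CAGAC at 221 and 204 bases. The Ltbp1 window held a match to ACAAAG at 204 bases and 1 to CAGAC at 64 bases. Both were from genes lower in KO, but the Tgfbr1 window, from a gene higher in KO, held a match to ACAAAG as well, at 29 bases. The windows of Tgfb1 and Smad3 held none of the 4 motifs. GC content was 53.6% for Tgfb2, 56.8% for Ltbp1, 75.2% for Tgfb1, 74.8% for Tgfbr1 and 58.4% for Tgfbr2. Each of these motifs is common in such windows, so a match is a description of the letters and no binding site. Ltbp1 and Tgfbr1 have a further RefSeq start downstream, and the windows shown are those nearest to the start of the gene in GENCODE.

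The libraries held between 18242129 and 86906527 reads on genes, and a single read was worth between 0.395 and 1.58 normalized counts. Sox9 itself was at 5185, 6562 and 4921 normalized counts in control replicates 1, 2 and 3 and at 52.6, 64.3 and 57.7 in KO replicates 1, 2 and 3, so that Sox9 was low in every library labelled KO. The label of olfactory bulb astrocytes was compared with marker genes. The 10 astrocyte markers, such as the glutamate transporters Slc1a2 and Slc1a3, summed to between 492226 and 552785 normalized counts in control and to between 34014 and 44125 in KO, and 10 of 10 fell. The 15 microglia markers, such as Ctss and Csf1r, summed to between 223080 and 254533 in control and to between 885979 and 1051108 in KO, and 15 of 15 rose. In the KO libraries the microglia markers therefore exceeded the astrocyte markers, against the label, and the samples are called sorted cells here. Of the other lists, 9 of 10 neuron markers fell (sums of 17428 to 23741 in control and 2649 to 4805 in KO), as did 6 of 6 oligodendrocyte markers, 4 of 4 oligodendrocyte precursor markers, 5 of 6 ensheathing cell markers and 3 of 6 mural cell and fibroblast markers. The call of the ensheathing cell marker Npy, whose groups overlapped, was lost with edgeR, DESeq2, TMM scaling and quantile normalization. It was lost as well without control replicate 1, 2 or 3 or KO replicate 1 or 3. Without control replicate 3, the calls of the precursor marker Gpr17, the oligodendrocyte marker Mag and the mural cell marker Kcnj8 were lost. That of Gpr17, whose groups overlapped, was lost as well without control replicate 2 or KO replicate 3. That of Mag was also lost without control replicate 2 and under quantile normalization. Under quantile normalization 7 neuron markers were called lower. Border macrophage markers were mixed, with 4 of 6 lower, and Mrc1 was called higher except under quantile normalization and with the same total. The lower call of Cd163 was lost without control replicate 1 or KO replicate 3. Among endothelial markers 3 of 7 were called lower and 2 higher, Flt1 and Kdr. Both higher calls were lost with the same total, and that of Kdr also without control replicate 1 or 2 or KO replicate 1 or 3. The lower call of Cldn5 was lost without control replicate 3 and under quantile normalization. Of the 5 neutrophil and lymphocyte markers tested, S100a8 and S100a9 were called lower, both calls were lost without KO replicate 3 and that of S100a9 also without control replicate 2 or 3 or KO replicate 2. The sum of that list was 4019 in control replicate 2 against 485 and 895 in the other controls and 109 to 516 in KO. No marker in the lists was at 0 in all 3 libraries of a group. In bulk RNA, fewer cells of a type and less RNA per cell cannot be told apart.

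A gene was called higher or lower in KO at a limma adjusted p under 0.05 and at least 1.5-fold. Of the 10 members, 5 were called higher in KO (Tgfb1, Tgfbr1, Tgfbr2, Smad2 and Smad7), 4 were called lower (Tgfb2, Tgfb3, Tgfbr3 and Ltbp1), and Smad3 was not called. Over all genes tested, 22.2% were called higher and 28.8% lower, 51.0% in all. The members' median log2 fold change was 0.40, and that of all genes was -0.07. In 9 of the 10 members the 3 KO libraries lay on 1 side of the 3 controls, which was also the case for 67.2% of all genes tested. Calls were thus common in this experiment, and the counts of 10 genes are read only beside these shares. Scaling the libraries to the same total shifted the median of all genes by -0.23 on the log2 scale, the same without the ribosomal RNA gene Rn45s by -0.31, and quantile normalization by 0.27. The lower calls made up 56.4% of all calls with the values as deposited, and 67.8%, 71.5% and 43.2% under these scalings.

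**Figure D1:**
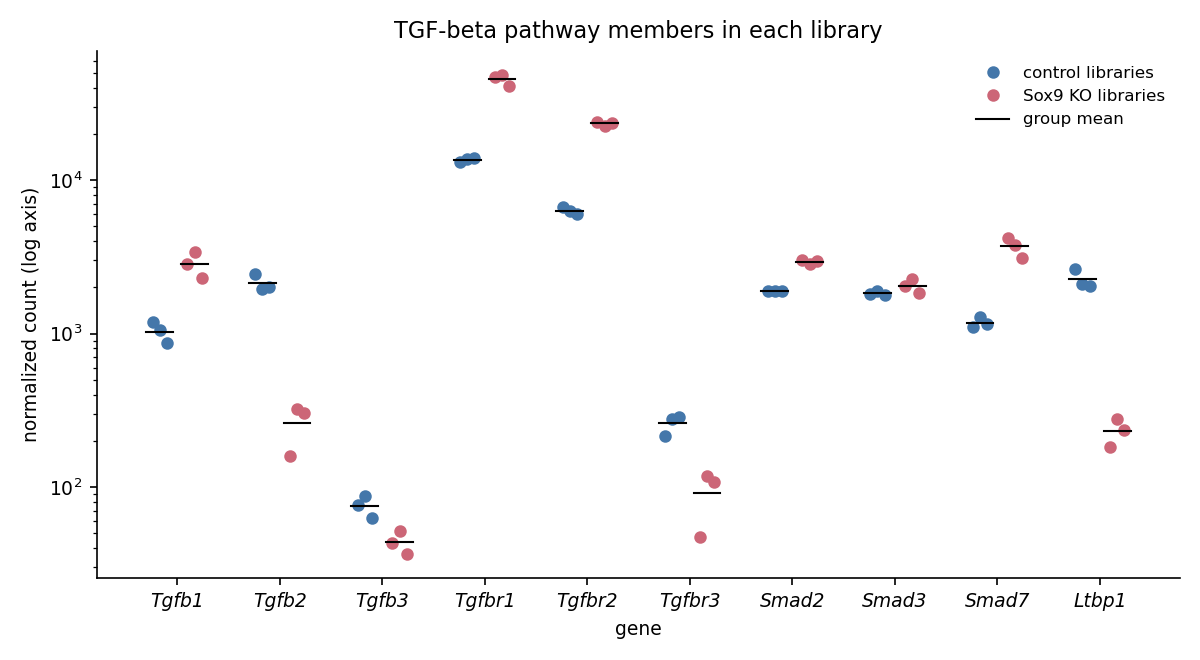
Normalized counts (vertical log axis) of the 10 members in each library, with control libraries in blue, Sox9 KO libraries in red and a line at each group mean. The groups overlap for Smad3, and for the other 9 members the 3 KO points lie on 1 side of the 3 control points. Tgfbr1 reaches 48835 normalized counts and Tgfb3 stays under 90.

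Among the ligands, Tgfb1 rose and Tgfb2 fell in KO. Tgfb1, the ligand known for its part in immune regulation (chr7:25687002-25705077, plus strand), was at 1181, 1049 and 862 normalized counts in control replicates 1, 2 and 3 and at 2834, 3399 and 2291 in KO replicates 1, 2 and 3. The lowest KO library was above the highest control. The mean went from 1031 ± 160 to 2841 ± 554 (SD, n = 3 each), a ratio of 2.76, with a log2 fold change of 1.46 (standard error 0.16, limma adjusted p = 1.9e-05). Tgfb2, the ligand known from glia and neurons (chr1:186622792-186705989, minus strand), was at 2443, 1950 and 2010 normalized counts in control and at 158, 323 and 301 in KO. Every KO library was far below every control, and KO replicate 1 was the lowest. The control mean, 2134 ± 269, was 8.20 times the KO mean of 260 ± 89.5 (SD, n = 3 each). The log2 fold change was -3.09, with a standard error of 0.24 and a limma adjusted p of 1.5e-06.

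Tgfb3, the third isoform (chr12:86056745-86079041, minus strand), was the least abundant member, at 76.0, 86.7 and 63.0 normalized counts in control and 42.7, 51.7 and 36.5 in KO. These values came from 40 to 126 reads in control and 24 to 131 reads in KO. The groups did not overlap, but they lay close together. The log2 fold change was -0.78 (standard error 0.30, 95% confidence interval -1.44 to -0.11), with a limma adjusted p of 0.0439. This call was lost with edgeR (adjusted p = 0.0539), DESeq2 (adjusted p = 0.0501), TMM scaling, no filter, the replicate block, and without control replicate 1 or 2 or KO replicate 1 or 3. Under quantile normalization the estimate turned to 0.10.

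The proportions of the ligands to each other were compared next. The log2 ratio of Tgfb2 to Tgfb1 within a library, which does not depend on how libraries were scaled, was 1.05, 0.89 and 1.22 in control and -4.16, -3.39 and -2.92 in KO. The groups did not overlap, and their means differed by -4.55. With 3 against 3, the exact permutation test gave a two-sided p of 0.10, the smallest it can give. Per kb of the longest transcript, Tgfb1 made up 47.9%, 50.1% and 44.9% of the 3 ligands in control and 96.2%, 94.4% and 92.8% in KO. Tgfb2 made up 49.7% ± 2.92 of the 3 ligands in control (SD, n = 3), against 4.44% ± 1.72 in KO (SD, n = 3). Tgfb3 stayed a small part throughout, at 2.34% to 3.15% in control and 1.09% to 1.12% in KO. The summed level of the 3 ligands per kb was 959, 815 and 747 in control and 1145, 1399 and 960 in KO, so that the lowest KO library was close to the highest control. Short antisense transcripts share 124 bases with exons of Tgfb2 and up to 257 bases with exons of Tgfb3 in GENCODE M21, and no source used here gives the strandedness of the counting.

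**Figure D2:**
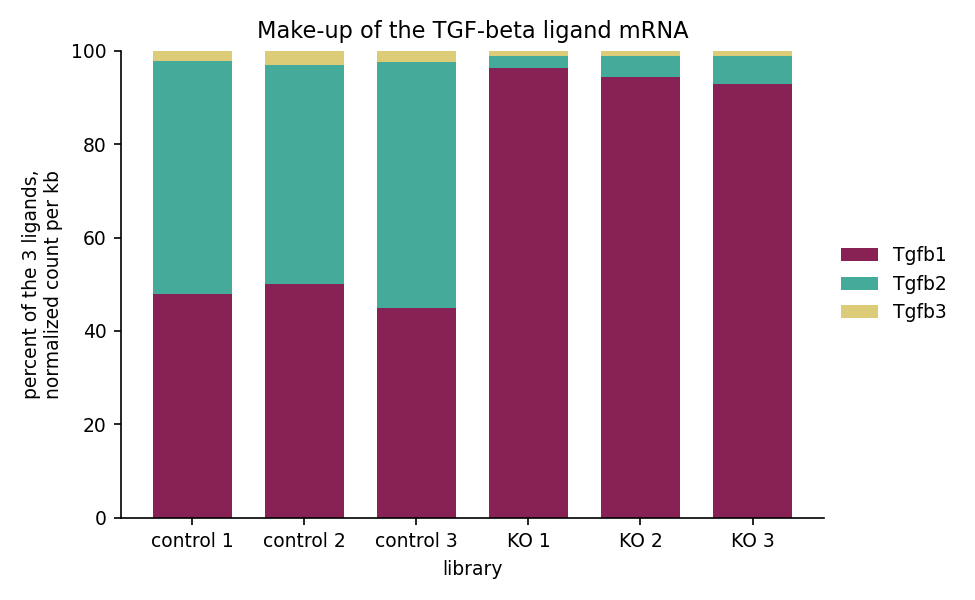
Percent of the summed TGF-beta ligand level, in normalized counts per kb of the longest transcript, that each of the 3 ligands takes in each library (stacked bars, vertical axis from 0 to 100). Tgfb1 takes between 44.9% and 50.1% in the control libraries and between 92.8% and 96.2% in the Sox9 KO libraries.

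Ltbp1, which binds latent TGF-beta and ties it to the matrix (chr17:75005568-75392512, plus strand), fell the furthest of the members. It was at 2654, 2120 and 2054 normalized counts in control and at 183, 276 and 234 in KO. Every KO library was below every control by a wide margin. The control mean of 2276 ± 329 was 9.86 times the KO mean of 231 ± 46.5 (SD, n = 3 each). The log2 fold change was -3.31, with a standard error of 0.17 and a limma adjusted p of 8.2e-08. Leaving out each library in turn kept the estimate between -3.44 and -3.15.

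The receptors that carry the signal rose, and the co-receptor fell. Tgfbr1, the type I receptor kinase (chr4:47353222-47414931, plus strand), was at 13174, 13731 and 13978 normalized counts in control and at 46990, 48835 and 41201 in KO. The libraries of each group were close together and the groups were far apart. Its mean rose 3.35-fold, with a log2 fold change of 1.74 (standard error 0.10, limma adjusted p = 1.6e-07). Tgfbr2, the type II receptor that binds the ligand (chr9:116084293-116175360, minus strand), was at 6662, 6309 and 5982 normalized counts in control and at 24128, 22628 and 23750 in KO. Its mean rose 3.72-fold, with a log2 fold change of 1.90 (standard error 0.08, limma adjusted p = 4.2e-08), the largest rise among the members with the values as deposited.

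The receptors Tgfbr1 and Tgfbr2 kept a similar proportion to each other. The log2 ratio of Tgfbr1 to Tgfbr2 was 0.98, 1.12 and 1.22 in control and 0.96, 1.11 and 0.79 in KO. These ranges overlapped, and the means differed by -0.15 (exact permutation test, two-sided p = 0.20). Tgfbr3, also called betaglycan, a co-receptor that presents Tgfb2 to Tgfbr2 (chr5:107106570-107289629, minus strand), was at 215, 278 and 285 normalized counts in control and at 46.7, 118 and 108 in KO. The groups did not overlap, and KO replicate 1 was again the lowest. The log2 fold change was -1.60 (standard error 0.33, limma adjusted p = 0.00186), between -1.84 and -1.18 with each library left out in turn. A transcript on the same strand shares 297 bases with exons of Tgfbr3 in GENCODE M21, and it is not among the genes listed.

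Among the Smad genes, the inhibitor changed more than the receptor substrates. Smad7, which recruits ubiquitin ligases to the receptor and so dampens the signal (chromosome 18), was at 1096, 1286 and 1157 normalized counts in control and at 4194, 3780 and 3129 in KO. The lowest KO library was well above the highest control. Its mean rose 3.14-fold, with a log2 fold change of 1.64 (standard error 0.12, limma adjusted p = 1.1e-06). Smad2, a substrate of Tgfbr1 (chromosome 18), was at 1907, 1905 and 1893 normalized counts in control and at 3033, 2829 and 2985 in KO. Both groups were tight and did not overlap. Its log2 fold change of 0.63 (standard error 0.08, limma adjusted p = 8.0e-05) was only just past 1.5-fold, and scaling to the same total (0.39, or 0.31 without Rn45s) or quantile normalization (0.46) took it under that size.

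Smad3, the other substrate (chr9:63646767-63757994, minus strand), was at 1821, 1901 and 1783 normalized counts in control and at 2042, 2280 and 1844 in KO. KO replicate 3 lay within the control range. The log2 fold change was 0.16 (95% confidence interval -0.07 to 0.39, limma adjusted p = 0.202), and it was -0.08 with libraries scaled to the same total and -0.17 without Rn45s as well. The log2 ratio of Smad3 to Smad2 was -0.07, 0.00 and -0.09 in control and -0.57, -0.31 and -0.69 in KO. The KO libraries were all lower, by -0.47 in the mean, with a two-sided p of 0.10 in the exact permutation test, the smallest it can give.

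**Figure D3:**
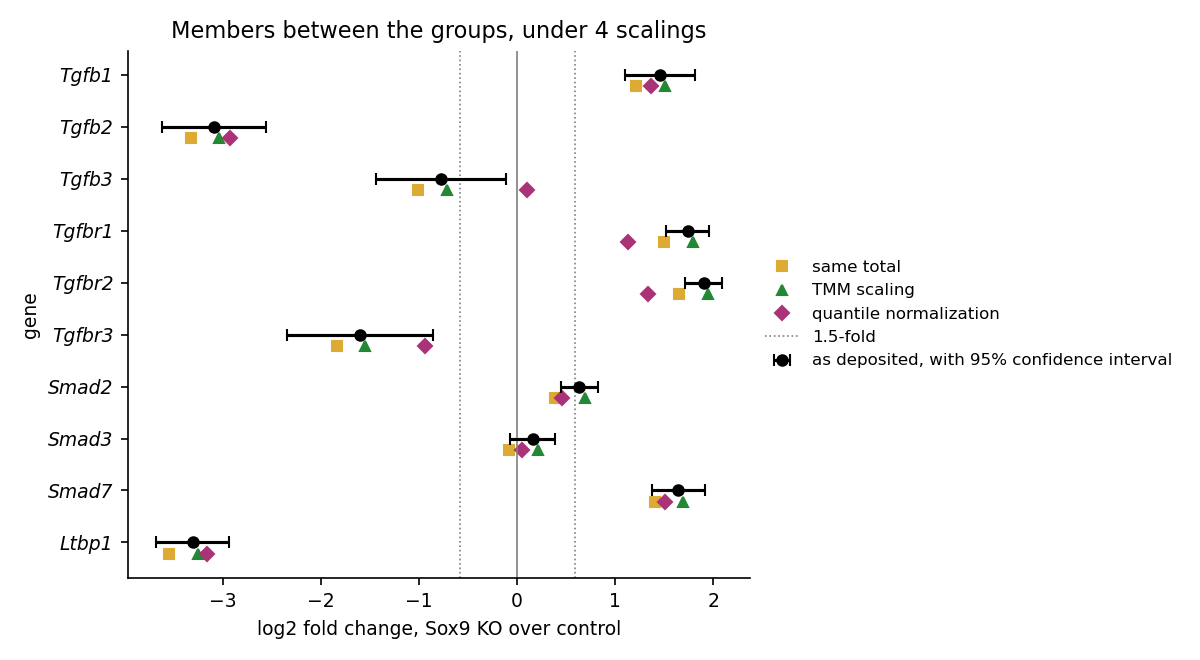
Log2 fold change of each member, Sox9 KO over control (horizontal axis), with the values as deposited (black points, bars for the 95% confidence interval) and after 3 other scalings (coloured points), and dotted lines at 1.5-fold. Tgfb1, Tgfbr1, Tgfbr2 and Smad7 stay past 1.5-fold higher and Tgfb2, Tgfbr3 and Ltbp1 past 1.5-fold lower under all 4, while Tgfb3 crosses 0 to 0.10 under quantile normalization, Smad3 crosses 0 to -0.08 with the same total, and Smad2 drops to 0.39 and 0.46.

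Per kb of the longest transcript, the order of the member levels was as follows. In control, Tgfbr1 led with 2368 ± 71.5 normalized counts per kb, followed by Tgfbr2 with 781 ± 42.1 (SD, n = 3 each). Tgfb2 (417 ± 52.7), Tgfb1 (401 ± 62.2), Smad3 (360.5 ± 11.9) and Ltbp1 (341 ± 49.3) came next, and each overlapped the next in its range over the libraries. Smad7 (276 ± 22.7), Smad2 (235 ± 0.932), Tgfbr3 (42.6 ± 6.37) and Tgfb3 (22.2 ± 3.50) followed without overlap between neighbours. In KO, Tgfbr1 (7935 ± 692) and Tgfbr2 (2904 ± 96.4) again led, with Tgfb1 (1104 ± 215) and Smad7 (865 ± 125.5) next and overlapping each other. Smad3 (404 ± 42.9) and Smad2 (365 ± 13.2) overlapped as well. Tgfb2 (50.9 ± 17.5) and Ltbp1 (34.6 ± 6.97) had moved to places 7 and 8 and overlapped, and Tgfbr3 (14.9 ± 6.32) overlapped Tgfb3 (12.9 ± 2.27) at the end. These levels depend on which transcript length is used, and the length that the sorted cells use was not measured.

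Of the 5 members that rose, 4 did so by sizes like those of the microglia markers. Tgfb2 and Ltbp1 fell by sizes within the range of the astrocyte markers and of some other marker lists. The log2 fold changes of the 15 microglia markers ran from 1.43 to 2.70 with a median of 1.97, and those of Tgfb1, Tgfbr1, Tgfbr2 and Smad7, from 1.46 to 1.90, lay within that range. The 10 astrocyte markers ran from -5.25 to -2.72 with a median of -4.12, and Tgfb2 and Ltbp1 lay within that range. Each member was then set against the summed markers of its own library, a comparison that library scaling does not touch. Per 1000 normalized counts of microglia markers, Tgfbr2 was at 26.2, 28.3 and 26.1 in control and at 23.0, 23.0 and 26.8 in KO, and the groups overlapped. Tgfbr1 was at 51.8, 61.6 and 61.1 in control and at 44.7, 49.6 and 46.5 in KO, slightly lower. Smad7 was at 4.31, 5.77 and 5.06 in control and at 3.99, 3.84 and 3.53 in KO, and Tgfb1 was at 4.64, 4.70 and 3.77 in control and at 2.70, 3.45 and 2.59 in KO. On this scale every member but Tgfbr2 lay below control in every KO library, whether it had been called higher, lower or neither. The mean microglia marker sum was 4.14 times as high in KO as in control. A member whose mean rose less than that comes out lower here. How many of all genes do so was not counted. Smad2 was at 8.10 ± 0.544 in control and 3.04 ± 0.283 in KO on the same scale, and Smad3 was at 7.82 ± 0.686 and 2.11 ± 0.188 (SD, n = 3 each).

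Per 1000 normalized counts of astrocyte markers, Tgfb2 was at 4.57, 3.53 and 4.08 in control and at 4.64, 7.31 and 7.99 in KO. No KO library was below a control on this scale. Ltbp1 was at 4.97, 3.84 and 4.17 in control and at 5.37, 6.24 and 6.21 in KO, again with no KO library below a control. Tgfbr3 was at 0.402, 0.503 and 0.580 in control and at 1.37, 2.67 and 2.86 in KO. Every other member was likewise higher in every KO library than in every control on this scale. The mean astrocyte marker sum was 13.6 times as high in control as in KO. A member whose mean fell less than that comes out higher here, so the scale does not single out Tgfb2, Ltbp1 or Tgfbr3. The astrocyte, oligodendrocyte and oligodendrocyte precursor markers fell, as did Tgfb2, Ltbp1 and Tgfbr3. Most neuron and ensheathing cell markers fell too, and so did some in each other list except microglia. Tgfbr3, at a log2 fold change of -1.60, lay outside the range of the astrocyte markers. The microglia markers moved with the members that rose. The part of any of these cell types in the members' changes was not tested.

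**Figure D4:**
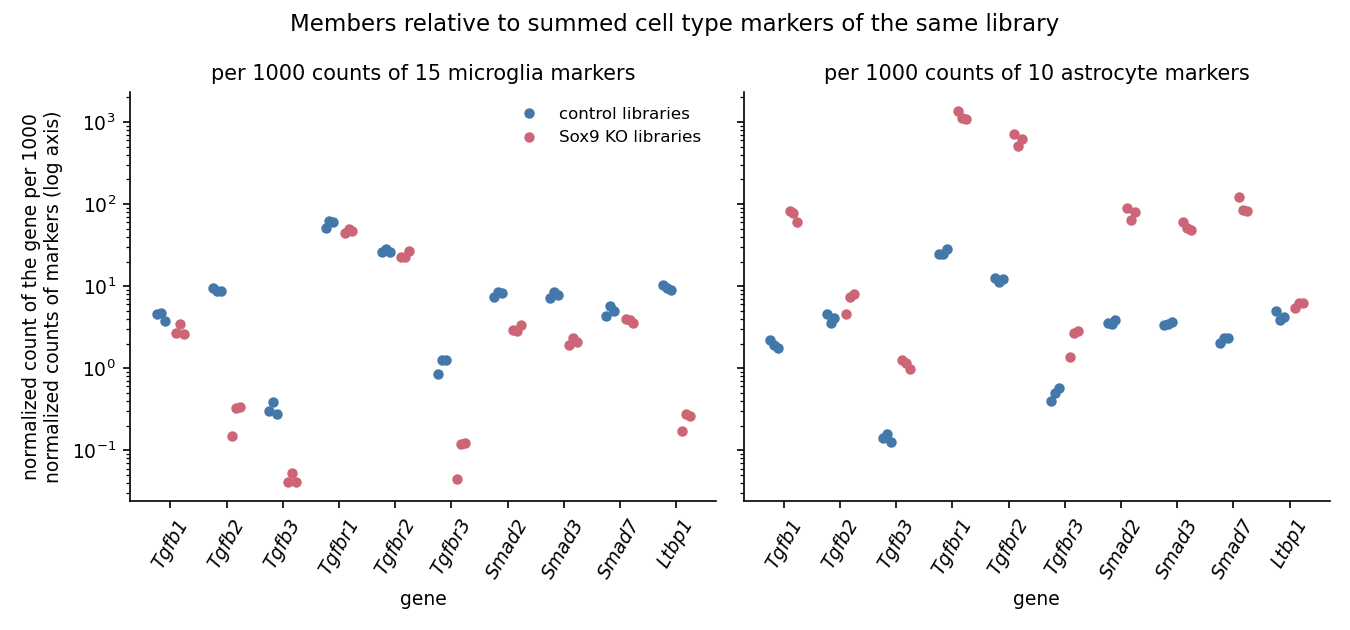
Normalized count of each member per 1000 normalized counts of the summed microglia markers (left) or astrocyte markers (right) of the same library, on a log axis, with control libraries in blue and Sox9 KO libraries in red. Tgfbr2 overlaps between the groups on the left, from 23.0 to 28.3, and every other member is lower there in every KO library. On the right every member is higher in every KO library than in every control. The mean marker sums themselves differ, with microglia 4.14 times as high in KO and astrocytes 13.6 times as high in control.

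The other genes of the pathway were taken from 6 lists of 56 genes, of which 54 passed the filter. Of these, 17 rose, 18 fell and 19 were not called, with a median log2 fold change of 0.29. This compares with the 22.2% higher and 28.8% lower over all genes. With libraries scaled to the same total 13 were called higher and 20 lower, the same without Rn45s gave 11 and 21, and quantile normalization gave 18 and 12.

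In the latent complex, 1 of 7 genes rose, 5 fell and Emilin1 was not called, while under quantile normalization 2 were called higher and 3 lower. Nrros, which anchors latent TGF-beta on microglia and macrophages, rose from 1892, 1805 and 1635 normalized counts to 6036, 5514 and 5027, with a log2 fold change of 1.63 (limma adjusted p = 2.9e-07). Lrrc32, the related anchor of regulatory T cells and vessel cells, fell from 203, 280 and 206.5 to 11.9, 18.2 and 28.9, with a log2 fold change of -3.55. The binding proteins related to Ltbp1 fell as well, Ltbp3 with a log2 fold change of -2.39, Ltbp4 with -2.45 and Ltbp2 with -1.04. All 3 had groups that did not overlap, and the call of Ltbp2 was lost under quantile normalization and without control replicate 1 or 3 or KO replicate 1. Anchors of the latent ligand thus differed in direction, with Nrros higher and Ltbp1, Ltbp3, Ltbp4 and Lrrc32 lower.

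Among the genes for activation, 4 of the 6 tested rose, 1 fell and Itgav was not called, while with an equal total that left out Rn45s 2 were called higher and 1 lower. Itgb8, the integrin subunit that frees latent TGF-beta together with Itgav, was at 6640, 6221 and 5481 normalized counts in control and at 439, 457 and 444 in KO. The control mean was 13.7 times the KO mean, with a log2 fold change of -3.77 (standard error 0.10, limma adjusted p = 4.4e-09), inside the range of the astrocyte markers. Its partner Itgav had a log2 fold change of -0.02 (95% confidence interval -0.22 to 0.17). Itgb5, another partner of Itgav, rose from a mean of 4992 ± 468 to 16873 ± 2170 normalized counts (SD, n = 3 each), and Thbs1, a secreted activator, rose from 843.5 ± 164 to 3973 ± 496. Furin, the protease that cuts the ligand from its propeptide, and Mmp14, a membrane protease, rose less, with log2 fold changes of 0.83 and 0.65, and both calls were lost under scaling to an equal total that left out Rn45s. The call of Mmp14 was lost as well with the plain same total, under quantile normalization and without KO replicate 1 (0.51).

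Of the 6 accessory receptors, 3 rose, 1 fell and 2 were not called. Acvrl1, a type I receptor best known from blood vessels, rose with a log2 fold change of 2.36, from 118, 106 and 186 normalized counts to 852, 668 and 565. Its co-receptor Eng rose 2.29-fold in the mean, and Bambi, a decoy receptor, rose with a log2 fold change of 1.54. Cd109, which binds the ligand and inhibits signalling, fell with -1.50, a call lost under quantile normalization. Tgfbrap1, a receptor-associated protein, was above control in every KO library, with a log2 fold change of 0.46 (limma adjusted p = 0.00195) that did not reach 1.5-fold.

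Among the 13 Smad partners tested, 6 rose, none fell and 7 were not called, although with libraries scaled to the same total 4 were called higher and 1 lower, and without Rn45s 3 and 2. The median log2 fold change was 0.56. Skil, a repressor of Smad targets, was at 8793, 8659 and 9115 normalized counts in control and at 37281, 34789 and 31731 in KO, a log2 fold change of 1.96 (limma adjusted p = 5.3e-08). Tgif1, another repressor, rose from a mean of 1023 ± 82.1 to 4556 ± 573 (SD, n = 3 each), or 2.15 on the log2 scale. Pmepa1, which keeps Smad proteins from the receptor, rose with 1.25. Ski had a log2 fold change of 0.82, the ubiquitin ligase Smurf2 had 0.74 and the deubiquitinase Usp15 had 0.87, and these 3 calls were lost under scaling to an equal total that left out Rn45s. Those of Ski and Smurf2 were lost with the plain same total and under quantile normalization too. Smad4, the common partner of Smad2 and Smad3, had a log2 fold change of 0.45 and was not called.

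In the activin branch, which shares Smad2 and Smad3 with TGF-beta, 1 of 10 genes rose, 6 fell and 3 were not called. Under quantile normalization 2 were called higher and 4 lower, and with the same total 0 higher and 6 lower. The lower call of Fst was lost with edgeR (adjusted p = 0.0521) and under quantile normalization. It was lost as well without control replicate 1, 2 or 3 or KO replicate 1 or 2. Inhbb, an activin subunit, was at 89.1, 71.6 and 77.2 normalized counts in control and at 0, 3.55 and 0 in KO, the largest fitted fall of the 54 genes with a log2 fold change of -5.59. Inha, the inhibin subunit, fell from a mean of 35.9 ± 14.6 to 4.82 ± 3.73 (SD, n = 3 each). The receptor Acvr1b had a log2 fold change of 0.70, a call lost with the same total, and Acvr2a had 0.39 and was not called.

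Of the 12 target genes, which TGF-beta is known to induce in 1 cell type or another, 2 rose, 5 fell and 5 were not called. Under quantile normalization 3 were called higher and 4 lower, and with the same total 2 and 6. The calls of Ctgf and Fn1, both lower, were lost without KO replicate 1 or control replicate 3, among others. Ctgf was not called with edgeR (adjusted p = 0.0529), and its estimate changed sign under quantile normalization. Fn1, whose groups overlapped, was not called with DESeq2 (adjusted p = 0.0763). Tgfbi, a matrix protein, rose from 1507, 1890 and 1453 normalized counts to 2933, 3231 and 3716, a log2 fold change of 1.03. Cdkn1a, the cell cycle inhibitor p21, fell from 23573, 33920 and 29280 normalized counts to 1875, 2385 and 2619, a log2 fold change of -3.65 (limma adjusted p = 3.1e-08), within the range of the astrocyte markers. Bhlhe40, a transcription factor with many other inducers, fell with -2.01. The 12 genes therefore did not move in a common direction, and their mRNA is no measure of Smad phosphorylation, which was not measured here.

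**Figure D5:**
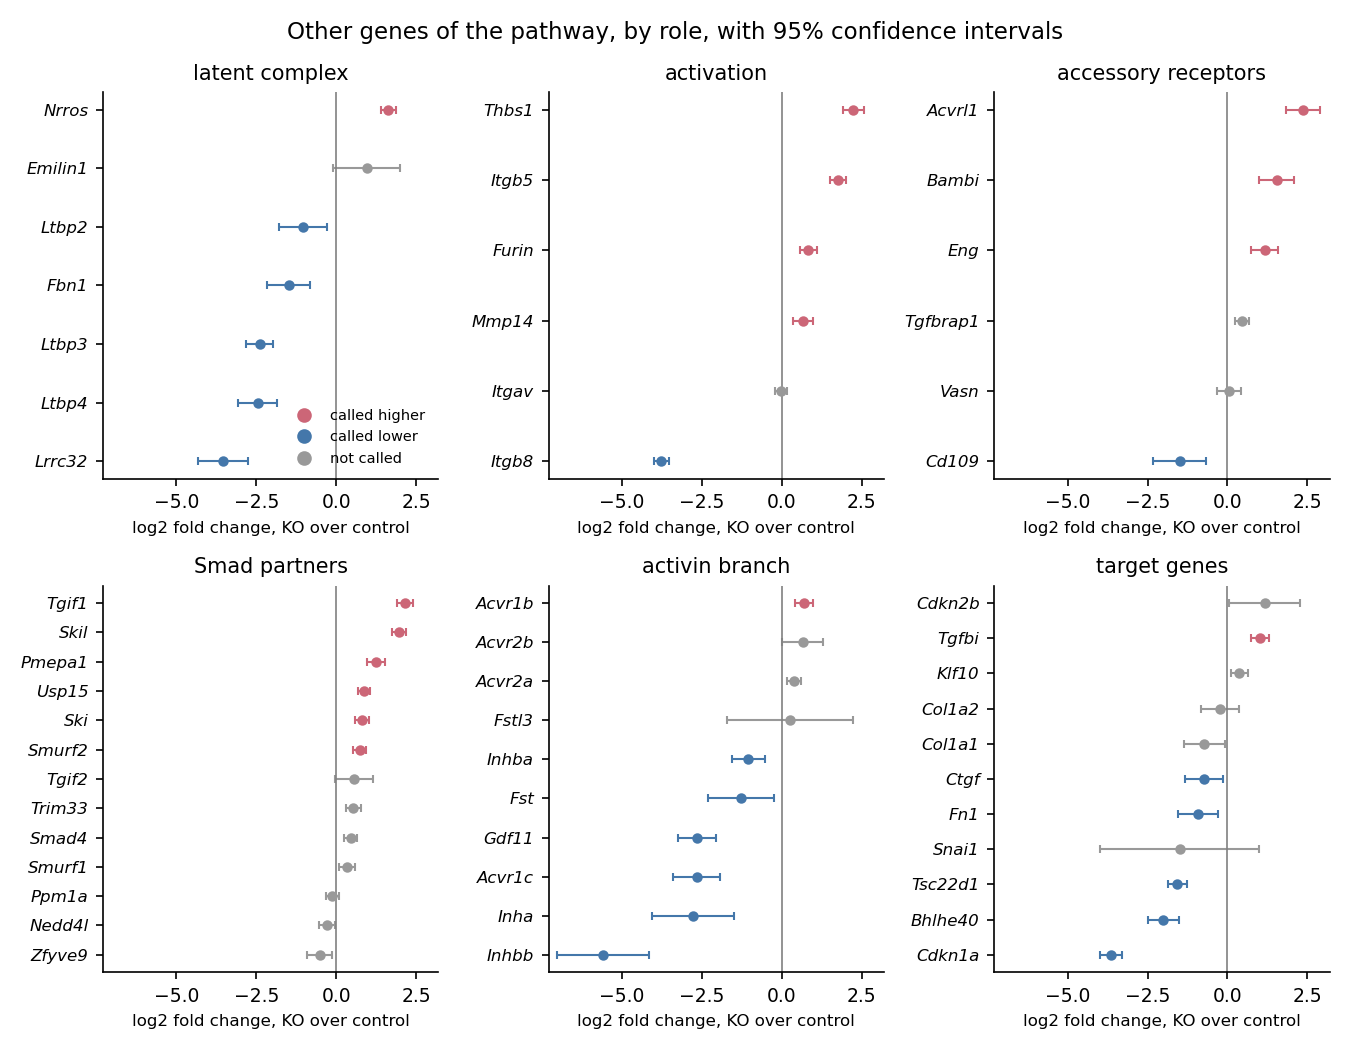
Log2 fold change, Sox9 KO over control (horizontal axis), with 95% confidence intervals, for the other pathway genes whose values are reported, in 1 panel per list, with genes called higher in red, called lower in blue and not called in grey. Among the Smad partners 6 of 13 are red and none is blue (4 higher and 1 lower with the same total), while in the activin branch 6 of 10 are blue and 1 is red (2 higher and 4 lower under quantile normalization, 0 higher with the same total).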

How the data were processed

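RNA-seq of FACS-isolated TurboRFP-positive olfactory bulb cells was compared between 3 control and 3 Sox9 KO libraries, with groups taken from the sample titles. The files deposited by the authors hold 1 signal value for each gene in a library. Per the labels, the authors used STAR 2.5.0a, mm10 and DESeq2 1.20.0. Per the study's methods, reads were counted per gene. No source used here gives the gene annotation. The values are named RPM, but in each library 100% of them were whole multiples of 1 step within 0.01 read, so they are read counts divided by 1 factor per library and are called normalized counts. The analysis had been planned for RPM, and its pseudocount of 1 and minimum mean of 1 were kept.

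Differences between groups were tested on the log2(normalized count + 1) scale by limma 3.58.1 (R 4.3.3), using a variance trend, no block, two-sided p-values and Benjamini-Hochberg adjustment over all 18413 genes tested. Fold changes on this scale understate those of low genes. The recovered reads were also tested with edgeR 4.0.16 (quasi-likelihood) and DESeq2 1.42.0. All were run on simulated data in which few genes changed, each 2-fold, whereas 51.0% of genes were called here. The simulation therefore does not show how the tools behave when changes are this common. Within-library ratios used exact permutation tests over the 6 libraries. Alternatives covered the pseudocount, filter, scaling, trend, replicate block, tool, thresholds, transcript length and each library left out. Transcript lengths and overlaps came from GENCODE M21 and promoter windows from RefSeq. Intervals of fold changes are 95% limma intervals.

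The members and gene lists were chosen with earlier results of these data known. Named in the text are all members, Sox9 and, in each pathway list, the 2 genes with the highest mean and the 2 called genes with the largest change and no overlap. Of each marker list the 2 with the highest mean could be named. Other pathway genes named (Ltbp2, Emilin1, Furin, Mmp14, Cd109, Pmepa1, Smurf2, Usp15, Smad4, Fst, Ctgf and Fn1) were chosen after values were seen. So were the markers S100a8, S100a9, Flt1, Kdr, Mrc1, Npy, Gpr17, Mag, Kcnj8, Cd163 and Cldn5 as singled out, the motifs and the comparison with summed markers. Python 3.11.15 made the tables. The 27 gene names that a spreadsheet had turned into dates were left as they are. The values of some single genes are not reported here.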

Additional observations from a re-analysis of the deposited data

How the results depend on the processing

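Tgfb1, Tgfb2, Tgfbr1, Tgfbr2, Tgfbr3, Smad7 and Ltbp1 kept their direction and their call under all 18 alternatives run for each. Tgfb3 reversed under quantile normalization (0.10), and Smad3, not called, reversed with libraries scaled to the same total (-0.08) and without Rn45s as well (-0.17). The cause was not tested. Pathway genes called higher fell from 17 to 11 at 2-fold and to 11 with the same total without Rn45s, and all genes called higher from 4090 to 2514 and 2630. The share of Tgfb1 in the ligands was 34.3% in control and 90.6% in KO with the union of exons as length, and 42.7% in control with the shortest coding transcript.

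With each library left out in turn, 5 members were called higher and between 3 and 4 lower. The Tgfb2 to Tgfb1 difference ran from -4.83 to -4.21, that of Smad3 to Smad2 from -0.58 to -0.39 and that of Tgfbr1 to Tgfbr2 from -0.23 to -0.07. Control and KO share only replicate numbers, and same-numbered libraries did not deviate together (correlations of -0.0513, -0.0134 and -0.013). With a replicate block, 5 members were called higher and 3 lower, 18 pathway genes higher and 18 lower, and 4048 genes higher and 5227 lower in all. Depth limits Tgfb3 the most, with as few as 24 reads in a library. With 3 mice a group, p-values of the ratios could not pass 0.10.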
